A study of Mus musculus with 9 samples.

Results

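The aminergic and muscarinic receptors are the cell surface receptors through which serotonin, dopamine, noradrenaline, adrenaline, histamine and, at its muscarinic receptors, acetylcholine act on cells. Their mRNA was followed in mouse central nervous system from the early embryo to the adult. Members were chosen by gene symbol alone, as every protein-coding gene of GENCODE M21 named Htr1 to Htr7, Drd1 to Drd5, Adra1 or Adra2, Adrb, Chrm1 to Chrm5 or Hrh1 to Hrh4, with any subtype letter or number. This gave 37 genes of the 45706 identifiers in the table, namely 14 serotonin, 5 dopamine, 9 adrenergic, 5 muscarinic and 4 histamine receptor genes. Nicotinic acetylcholine receptors are not among them and are given only for context.

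Tissue came from untreated C57BL6/J mice of 3 ages, named as in the labels: the embryonic stages E9.5 and E14.5 (days of gestation), and adults of postnatal day 60 (P60). Each stage had 3 libraries. The tissue differed in more than age. At E9.5 the head was severed behind the 4th ventricle and trimmed of much of what lay outside the neuroectoderm, at E14.5 the brain was taken without meninges, and at P60 central nervous system tissue was taken after perfusion with phosphate-buffered saline. The labels do not say whether the 3 libraries of a stage came from separate animals, so the p-values below measure only the spread between these samples.

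Nearly all of these receptors signal through heterotrimeric G proteins. Those coupled to Gs raise cyclic AMP by activating adenylyl cyclase, those coupled to Gi/o lower it and open potassium channels, and those coupled to Gq activate phospholipase C and release calcium. Htr3a and Htr3b are the exception, since they encode subunits of a ligand-gated cation channel. In the adult brain the monoamine ligands are made by small groups of brainstem, midbrain and hypothalamic neurons whose axons reach most of the brain, while the receptors lie largely on the target cells and in part on the axons themselves.

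Libraries held 30481975 to 35619093 counts, and the 37 receptor genes together received 589 to 703 reads at E9.5, 2685 to 3743 at E14.5 and 13783 to 21709 at P60. Levels are CPM, read counts divided by the TMM-adjusted library total and scaled to a common library size, and differences are log2 fold changes ± SE from edgeR's quasi-likelihood fit with Benjamini-Hochberg adjustment over the 17971 genes tested. Neuron markers were present at every stage, with summed levels of 225 to 254 CPM at E9.5, 4720 to 5640 at E14.5 and 5900 to 6550 at P60 for 7 genes. Of these 7 of 7 had a higher mean at E14.5 than at E9.5 and 3 of 7 at P60 than at E14.5. Some libraries stood apart. E9.5 replicate 1 held the highest value of its stage for 10 of 10 heart and skeletal muscle markers (summed level 404 CPM, against 10.1 and 9.51), and E14.5 replicate 1 held the lowest value of its stage for 8 of 9 markers of monoamine and cholinergic neurons. Libraries also differed by transcript length. Relative to its stage, the median log2 deviation of genes with transcripts of at least 4 kb was -0.28 in E14.5 replicate 1, 0.34 in P60 replicate 2 and -0.25 in P60 replicate 3, and between -0.14 and 0.15 in the other 6 libraries. Only some of the receptor values that move with these libraries are pointed out below. Among others, Chrm3, Adra1b, Htr2a, Htr5a, Htr1b and Chrm5 also had their lowest E14.5 value in replicate 1. Others, such as Hrh3, Htr6 and Adra2c, had their highest E14.5 value there. The part of the library in these values was not tested.

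The receptors as a whole were scarce at E9.5 and more abundant at each later stage. Their summed level was 23.5, 19.9 and 18.8 CPM in the E9.5 libraries, 80.9, 105 and 92.7 CPM in those of E14.5, and 459, 637 and 435 CPM in those of P60. The 3 stages did not overlap, and P60 replicate 2 was the highest library. Among the 34 members that passed the filter on low counts, the median level was 0.23 CPM in the E9.5 stage, 1.78 CPM in the E14.5 stage and 7.69 CPM in the P60 stage. Over all genes tested the medians were 13.6, 16.8 and 15 CPM, so the receptors lay below the typical gene at each stage. At E9.5, 5 of the 37 genes reached a mean of 1 CPM (Adra2b, Htr1b, Chrm4, Adra2a and Htr3b), at E14.5 19 did, and at P60 31 did. In bulk tissue, more cells of a type and more RNA per cell cannot be told apart.

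**Figure D1:**
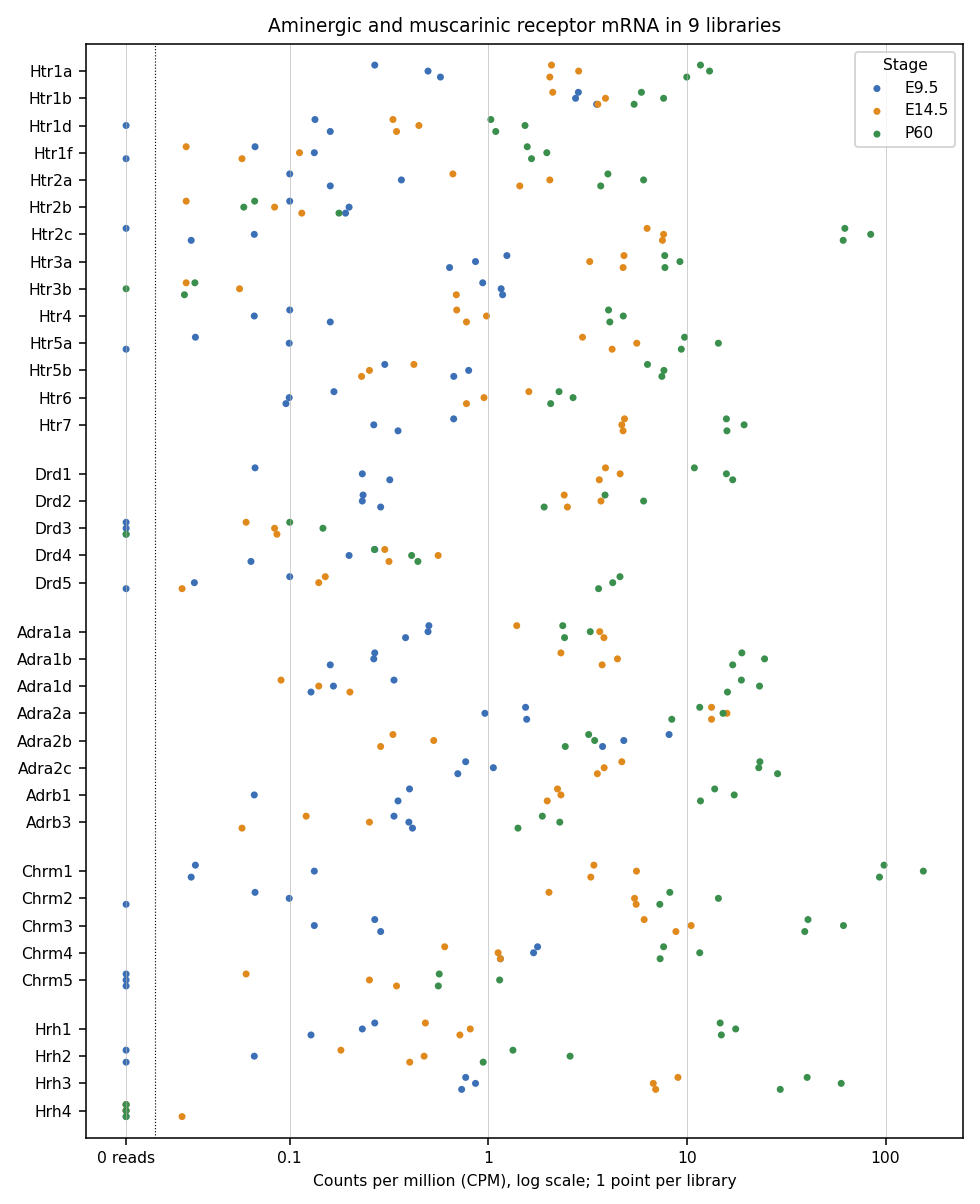
Level of 36 of the 37 receptor genes in each of the 9 libraries, in CPM on a log axis, with genes grouped as serotonin, dopamine, adrenergic, muscarinic and histamine receptors and stages marked by colour. Points left of the dotted line are libraries with no read. Chrm1 and Htr2c span the widest range, from 0.066 and 0.0327 CPM on average at E9.5 to 115 and 69.3 CPM at P60, while Adra2b and Htr3b are highest at E9.5.

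Between E9.5 and E14.5 the receptors with the largest fitted rises were Htr2c, Htr5a, Chrm2, Chrm1 and Chrm3, leaving aside Chrm5, which had no read at E9.5, while Adra2b, Adrb3, Htr3b and Htr5b fell. Of the 37 genes, 23 were higher at E14.5, 4 were lower, 7 were not called and 3 (Drd3, Hrh4 and Htr2b) had too few reads to be tested. The count of lower calls was 1 without E9.5 replicate 2 or 3, 2 without any 1 of the E14.5 libraries and 3 with the replicate number as a block. Over all genes tested 64.6% were called, 34% higher and 30.7% lower. The median log2 fold change was 2.69 over the 34 receptor genes tested and 0.03 over all genes. By family, 9 of 14 serotonin receptor genes were higher and 2 lower, 5 of 9 adrenergic genes were higher and 2 lower, and 4 of 5 muscarinic, 3 of 4 histamine and 2 of 5 dopamine genes were higher with none lower. These counts describe the members and are no test of them as a group, because a scarce gene passes the filter only through the stage where it is higher. At the filter's cutoff of 0.311 CPM in all 3 libraries of a stage stood 11 members at E9.5, 25 at E14.5 and 32 at P60, and 6 reached it at P60 alone.

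From E14.5 to P60 the largest fitted rises were those of Adra1d, Drd5, Chrm1, Htr1f, Htr5b and Hrh1. Here 29 genes were higher at P60, 1 was lower (Htr3b), and 4 were not called (Adra1a, Adra2a, Drd2 and Drd4). Over all genes tested 76.1% were called, 36.7% higher and 39.4% lower. The median log2 fold change was 2.25 over the members tested and -0.06 over all genes. By family, 12 of 14 serotonin genes were higher and 1 lower, and 7 of 9 adrenergic, 5 of 5 muscarinic, 3 of 4 histamine and 2 of 5 dopamine genes were higher.

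Over the whole interval from E9.5 to P60, 31 genes were higher, 2 were lower (Adra2b and Htr3b) and 1 was not called (Drd4). Of all genes tested 82.6% were called in this comparison, 42% higher and 40.6% lower. The median log2 fold change was 4.78 for the members and 0.05 for all genes. For the members it was 4.66 with Chrm5, which had no read at E9.5, set at its bound of 23.3-fold (a floor of 3 reads). The 3 comparisons share libraries pairwise, so a low or high E14.5 library moves the first and second in opposite directions.

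**Figure D2:**
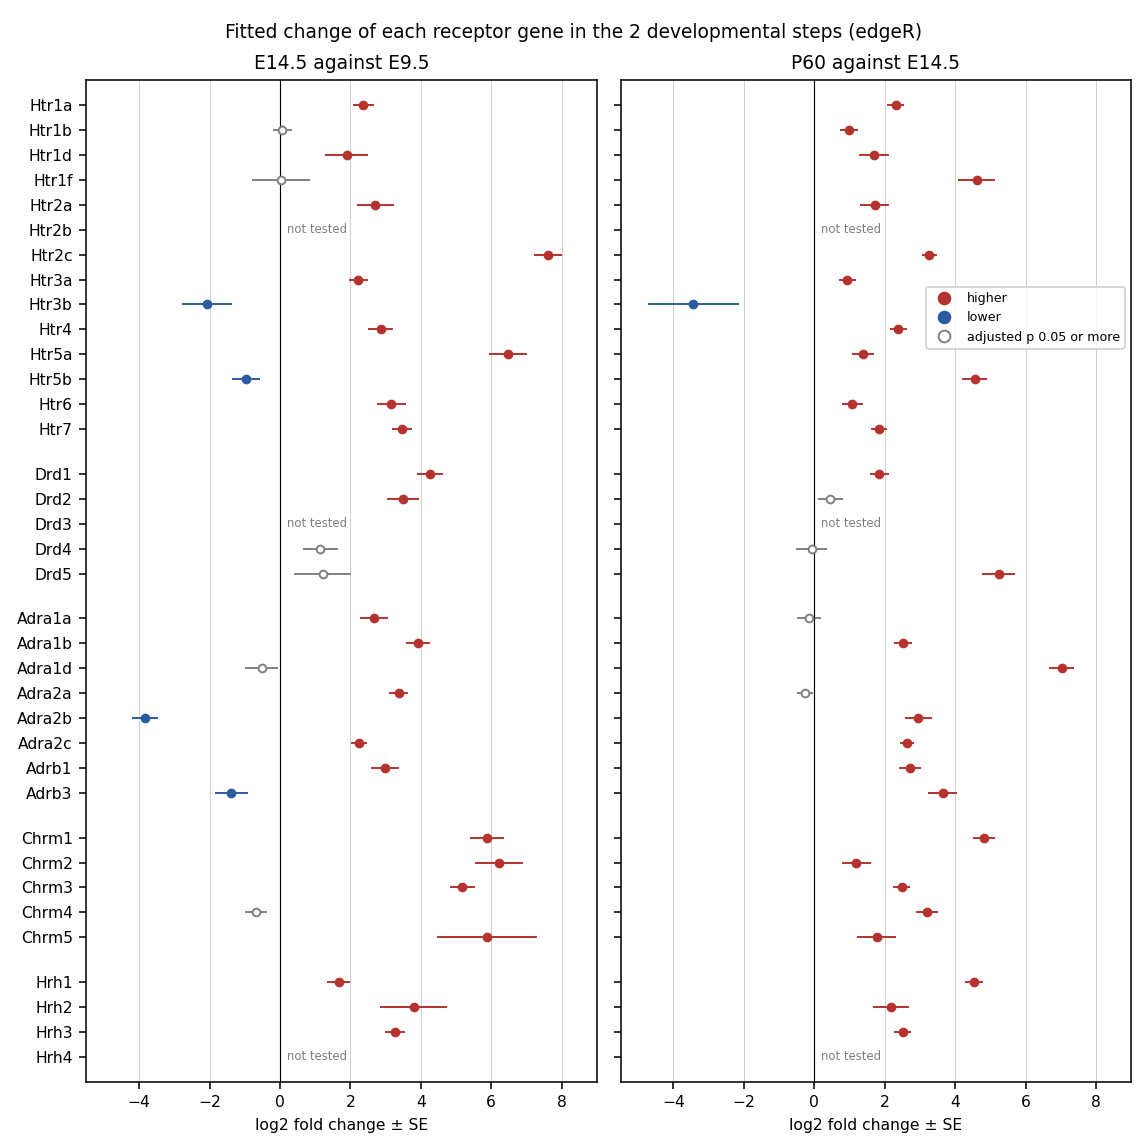
Fitted log2 fold change with its SE for 36 of the 37 receptor genes, E14.5 against E9.5 on the left and P60 against E14.5 on the right, with filled points for adjusted p under 0.05. Adra2b, Adrb3, Htr3b and Htr5b lie left of zero in the first comparison and Adra1d has the largest rise in the second, a log2 fold change of 7.03.

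To show the sequence next to the start of members with unlike courses, the 250 bases upstream of the RefSeq transcript start are printed below for Adra2b and Htr3b, which fell from E9.5 to E14.5, and for Htr2c and Chrm4. Htr2c had the largest fitted rise of the members in that step, and Chrm4 was the leading muscarinic receptor at E9.5. RefSeq windows on GRCm38.p6 were found for 28 of the 37 members. Each sequence reads 5′ to 3′ toward the gene, with every CpG dinucleotide, the target of DNA methylation in promoters, in capitals. The windows are chr2:127362929-127363178 on the plus strand for Adra2b, chr9:48964991-48965240 on the minus strand for Htr3b, chrX:146962263-146962512 on the plus strand for Htr2c and chr2:91921939-91922188 on the plus strand for Chrm4.
Adra2b: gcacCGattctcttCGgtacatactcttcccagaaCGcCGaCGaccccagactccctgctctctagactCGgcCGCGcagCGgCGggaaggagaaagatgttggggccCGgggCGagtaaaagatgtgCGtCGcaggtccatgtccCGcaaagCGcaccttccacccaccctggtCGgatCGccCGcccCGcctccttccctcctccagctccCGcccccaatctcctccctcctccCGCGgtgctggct
Htr3b: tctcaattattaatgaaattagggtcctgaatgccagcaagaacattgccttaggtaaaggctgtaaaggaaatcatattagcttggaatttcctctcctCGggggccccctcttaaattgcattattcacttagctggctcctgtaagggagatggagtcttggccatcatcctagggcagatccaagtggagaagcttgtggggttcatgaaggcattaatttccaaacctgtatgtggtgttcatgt
Htr2c: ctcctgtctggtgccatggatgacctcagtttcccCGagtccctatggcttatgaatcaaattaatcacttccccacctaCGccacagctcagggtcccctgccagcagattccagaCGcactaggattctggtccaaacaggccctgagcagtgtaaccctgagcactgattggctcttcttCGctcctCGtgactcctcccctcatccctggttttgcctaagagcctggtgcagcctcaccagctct
Chrm4: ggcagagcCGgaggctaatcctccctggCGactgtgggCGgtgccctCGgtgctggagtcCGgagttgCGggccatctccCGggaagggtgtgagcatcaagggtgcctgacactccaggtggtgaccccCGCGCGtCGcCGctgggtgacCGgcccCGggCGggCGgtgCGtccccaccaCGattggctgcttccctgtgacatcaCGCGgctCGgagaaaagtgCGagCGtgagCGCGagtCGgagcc
The number of CpG dinucleotides was 23 for Adra2b, 1 for Htr3b, 5 for Htr2c and 26 for Chrm4, against a median of 6 over all 32851 windows of this length. The pair of genes that fell thus had unlike CpG counts. Hrh3 (42), Htr7 (41) and Drd5 (35) had the most CpG dinucleotides among the 28 members, and Drd3 and Htr3b, with 1 each in their window, the fewest in a gene with a single window. The GC box GGGCGG, searched on both strands, was present in 20 of the 36 windows of these members (some have more than 1 start) and in 32.7% of all windows, and the TATA box TATAAA was found in 1 of 36 (Adra2a) and in 12.4% of all windows. The cyclic AMP response element TGACGTCA was found in 0 of 36 and in 1.55% of all windows. The window of Chrm4 lies upstream of the start of its GENCODE model, which begins at the coding sequence.

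Muscarinic receptors carry the slow actions of acetylcholine. Chrm1, Chrm3 and Chrm5 couple to Gq, and Chrm2 and Chrm4 couple to Gi/o. Chrm1, the main postsynaptic muscarinic receptor of the adult forebrain, had 1, 4 and 1 reads at E9.5, 113, 199 and 114 at E14.5, then 2950, 5275 and 3165 at P60. The 3 stages were far apart in every library, and P60 replicate 2 was again the highest. Chrm1 rose by a log2 fold change of 5.88 ± 0.49 (adjusted p = 1.8e-06) from E9.5 to E14.5 and by 4.82 ± 0.3 (adjusted p = 1.7e-07) from E14.5 to P60, and with a mean of 115 CPM it had the highest CPM of the 37 genes at P60. With 4 of the 6 reads of E9.5 in replicate 2, the first step was 6.81 without that library. Per kb of transcript it stood at 30.2 CPM (24.4 to 40.5 over the libraries), a range that overlapped that of Hrh3 (29.3, 20 to 40.5). P60 replicate 2 was also the library with relatively more reads from long transcripts, and the part of this in its receptor levels was not tested. Chrm3 took a similar course from 8, 4 and 9 reads at E9.5 through 202, 375 and 306 at E14.5 to 1222, 2091 and 1331 at P60. Its log2 fold changes were 5.18 ± 0.35 (adjusted p = 4e-07) and 2.48 ± 0.25 (adjusted p = 6e-06).

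Chrm2, which also acts as a brake on acetylcholine release from cholinergic terminals, had 2, 3 and 0 reads at E9.5, 67, 195 and 193 at E14.5, then 246, 491 and 248 at P60. The first step was a rise of 6.21 ± 0.68 on the log2 scale (adjusted p = 1.5e-05). It was 6.9 when E9.5 replicate 2 was left out. The second was 1.2 ± 0.41 (adjusted p = 0.02), and without P60 replicate 2 it was 0.83 with an adjusted p of 0.11. The low library at E14.5 was replicate 1, which was also low in genes of monoamine neurons. There the serotonin transporter gene Slc6a4 stood at 0.603 CPM against 4.92 and 4.05. It was also low in long transcripts, and the mean Chrm2 transcript has 5676 bases. The part of either in the Chrm2 values was not tested. The opposite-strand transcript 9330158H04Rik, which overlaps Chrm2 exons, had 189 reads over the 9 libraries, against 1445 for Chrm2.

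Chrm4, the Gi/o-coupled receptor best known from striatal neurons, was the one muscarinic receptor gene above 1 CPM at E9.5. It had 53, 51 and 36 reads at E9.5, 20, 40 and 40 at E14.5, then 229, 395 and 249 at P60. The 2 embryonic stages overlapped, and the step between them was not called (log2 fold change -0.68 ± 0.31, adjusted p = 0.081), whereas the rise to P60 was 3.2 ± 0.31 (adjusted p = 4.1e-06). The GENCODE model of Chrm4 spans chr2:91927249-91928688 and holds coding sequence only, as does that of Chrm5, so their levels per kb are per coding length. Coding sequence alone also makes up 5 of the 6 coding models of Hrh3, 1 of 2 of Chrm3 and 1 of 2 of Htr2b. Their mean lengths, and so their levels per kb and shares, depend in part on this. Chrm5, the scarcest of the 5, had no read at E9.5, 2, 9 and 12 at E14.5, then 17, 39 and 19 at P60. Against a floor of 3 reads over the 3 E9.5 libraries it was at least 6.76-fold higher at E14.5 and at least 23.3-fold higher at P60. Its second step was 1.77 ± 0.55 (adjusted p = 0.016), and without P60 replicate 2 it was 1.33 with an adjusted p of 0.073.

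Among the serotonin receptors, Htr2c had the widest range. This Gq-coupled receptor is known for its high level in the choroid plexus, the tissue that makes cerebrospinal fluid, and for its place in many brain neurons. It lies on the X chromosome (chrX:146962513-147197277). It had 0, 2 and 1 reads in the E9.5 libraries, 209, 273 and 262 in those of E14.5, and 1873, 2870 and 2079 in those of P60. No stage overlapped another. With 3 reads in all at E9.5, the ratio of normalised counts was 219 at E14.5 (95% interval 74.5 to 1060, for counting error only) and 2120 at P60 (725 to 10300). The rise from E14.5 to P60 was 3.27 ± 0.21 on the log2 scale (adjusted p = 1.9e-07). Most choroid plexus markers moved in the same direction. The summed level of the 9 markers was 137 to 168 CPM at E9.5, 519 to 787 at E14.5 and 2020 to 4670 at P60. Of the 9, 8 had a higher mean at E14.5 than at E9.5 and 7 a higher mean at P60 than at E14.5, and no marker was at 0. Most of the E9.5 sum was Otx2 (117, 151 and 129 CPM), which was lower at E14.5 (53.6, 51 and 60.1 CPM) and at P60 (9.5, 13.6 and 11.9 CPM). Within P60, replicate 2 had the highest Htr2c level (84.2 CPM against 62.4 and 61.2) and the highest value of 7 of the 9 markers. Replicate 1 had the lowest value of 9 of the 9 markers, while its Htr2c level was close to that of replicate 3. The marker sum was highest in replicate 3 through Ttr (1940, 3630 and 4550 CPM). The summed level of all 37 receptor genes was also highest in replicate 2 (637 CPM against 459 and 435). The part of choroid plexus tissue in the Htr2c values was not tested.

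Htr2a, the Gq-coupled receptor of cortical pyramidal neurons, took a smaller course of 0.1, 0.365 and 0.16 CPM, then 0.663, 2.04 and 1.44 CPM, then 4, 6.05 and 3.68 CPM at the 3 stages in order. Both steps were called, with log2 fold changes of 2.71 ± 0.53 (adjusted p = 0.00097) and 1.72 ± 0.41 (adjusted p = 0.0027). The first was 3.37 without E9.5 replicate 2. Htr2b, the third gene of the subfamily and better known from heart valves and gut, had 33 reads over all 9 libraries and was not tested. Its exons overlap those of Psmd1 on the opposite strand, a gene with 63542 reads, and the strand setting of the counting is not given in the sources used here.

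Htr5a and Htr5b are a pair of closely related genes, of which the human genome keeps only the first as a functional gene. Htr5a had 1, 3 and 0 reads at E9.5, 99, 200 and 146 at E14.5, then 292, 490 and 318 at P60. Most of its change therefore fell in the first step, 6.48 ± 0.54 on the log2 scale (adjusted p = 1.7e-06), followed by 1.39 ± 0.31 (adjusted p = 0.0019). Without E9.5 replicate 2, which held 3 of the 4 early reads, the first step was 7.73. Htr5b took another path, with 9, 24 and 21 reads at E9.5, 14, 9 and 8 at E14.5, then 190, 261 and 254 at P60. Its libraries at the 2 embryonic stages overlapped. The fall between them, a log2 fold change of -0.97 ± 0.39 (adjusted p = 0.047), lay close to the threshold, and it was lost with the replicate number as a block (-0.94, adjusted p = 0.062) and on leaving out E9.5 replicate 2 or 3, E14.5 replicate 2 or 3 or any P60 library (adjusted p of 0.06 to 0.19), while the rise to P60 was 4.56 ± 0.35 (adjusted p = 7.4e-07).

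The 2 channel subunit genes moved in opposite directions although they are neighbours, 23.9 kb apart on chromosome 9. Htr3a, the subunit required for every functional channel of this type, had 1.24, 0.862 and 0.638 CPM at E9.5, 4.82, 3.24 and 4.77 at E14.5, then 7.73, 9.22 and 7.75 at P60. It rose by 2.23 ± 0.27 (adjusted p = 3.2e-05) and by 0.94 ± 0.24 (adjusted p = 0.0043) on the log2 scale. Htr3b, a modifying subunit that needs Htr3a to form channels, had 28, 35 and 37 reads at E9.5, 1, 2 and 24 at E14.5, then 1, 0 and 1 at P60. The 24 reads of E14.5 replicate 3 stand apart from the other 2 libraries of that stage. That library also had the highest value of its stage for 8 of 10 mesenchyme and neural crest markers, all but Prrx2 and Pdgfra. The marker sum was 693 CPM there, against 336 and 463. Most of it came from the collagen genes Col1a1 (285 CPM against 92.1 and 132) and Col1a2 (280 CPM against 157 and 207). Of the 10 markers 3, Col1a1, Col1a2 and Dcn, had a higher mean at E14.5 than at E9.5, where Htr3b was highest. The part of mesenchyme in the Htr3b reads was not tested.

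For Htr3b the whole interval gave the clearest change. P60 was 53.6-fold lower than E9.5 by normalised counts (95% interval 14 to 449, for counting error only), with an adjusted p of 0.00062. Both single steps moved with E14.5 replicate 3. E14.5 against E9.5 was -2.06 ± 0.71 (adjusted p = 0.026), and this call was lost on leaving out any 1 of 4 libraries (E9.5 replicate 2 or 3, E14.5 replicate 1 or 2), with an adjusted p of 0.06 to 0.09. Without E14.5 replicate 3 that step was -4.53 ± 0.57 (adjusted p = 8.2e-05). P60 against E14.5 had overlapping libraries and an adjusted p of 0.031. The ratio of counts there was 12.8-fold lower (3.21 to 111). Without E14.5 replicate 3 the log2 fold change was -0.97 with an adjusted p of 0.45, and leaving out any P60 library also ended the call (0.06 to 0.097).

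The Gi/o-coupled Htr1 genes were not called in the same steps, and the difference between steps was not tested. Htr1b, a presynaptic autoreceptor and heteroreceptor, had 2.84, 2.75 and 3.51 CPM at E9.5, 2.11, 3.89 and 3.56 at E14.5, then 5.9, 7.63 and 5.42 at P60. The embryonic stages overlapped (log2 fold change 0.07 ± 0.26, adjusted p = 0.82), and the step to P60 was 0.99 ± 0.25 (adjusted p = 0.0043). The antisense transcript D430036J16Rik overlaps its exons with 191 reads over the 9 libraries, against 1232 for Htr1b. Htr1a, the inhibitory receptor of serotonin neurons and of the hippocampus, rose in both steps, by 2.37 ± 0.29 (adjusted p = 3.2e-05) and 2.31 ± 0.24 (adjusted p = 7.7e-06), from 0.446 CPM at E9.5 to 11.6 CPM at P60. Htr1f had 2, 4 and 0 reads at E9.5, 1, 4 and 2 at E14.5, then 47, 67 and 56 at P60, a step of 4.61 ± 0.53 (adjusted p = 1.4e-05) after embryonic stages that overlapped. Htr1d rose from 4, 0 and 5 reads to 11, 16 and 12 and then to 31, 52 and 37. The first of these steps was 1.89 ± 0.6 (adjusted p = 0.016), and without E14.5 replicate 2 its adjusted p was 0.052.

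The Gs-coupled serotonin receptors Htr4, Htr6 and Htr7 each rose in both steps. Htr7 was the highest of them, at 0.428 CPM at E9.5, 4.77 at E14.5 and 17 at P60, with log2 fold changes of 3.47 ± 0.28 and 1.84 ± 0.22 (adjusted p = 1.3e-06 and 2.4e-05). Its 3 E14.5 libraries lay close together, at 4.85, 4.7 and 4.77 CPM. Htr6, a receptor found mainly on neurons and their primary cilia, had 5, 3 and 3 reads at E9.5, 53, 34 and 27 at E14.5, then 68, 91 and 70 at P60. The last step of Htr6 was 1.08 ± 0.3 (adjusted p = 0.0067). Htr4 had 3, 2 and 5 reads at E9.5, 23, 35 and 27 at E14.5, then 121, 163 and 139 at P60.

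Dopamine receptors divide into the Gs-coupled Drd1 and Drd5 and the Gi/o-coupled Drd2, Drd3 and Drd4. Drd1 and Drd2 mark the 2 output pathways of the striatum. Drd1 had 2, 7 and 10 reads at E9.5, 129, 165 and 126 at E14.5, then 326, 539 and 578 at P60. The stages did not overlap, with log2 fold changes of 4.26 ± 0.37 (adjusted p = 2.6e-06) and 1.85 ± 0.27 (adjusted p = 0.0001). Drd2, which is also the autoreceptor of dopamine neurons, had 7, 7 and 9 reads at E9.5, 80, 132 and 87 at E14.5, then 116, 206 and 65 at P60. It rose in the first step by 3.49 ± 0.46 (adjusted p = 5.8e-05). Its P60 libraries overlapped those at E14.5 (log2 fold change 0.46 ± 0.36, adjusted p = 0.26), with P60 replicate 3 the low one, and without that library the step was 0.78 with an adjusted p of 0.031.

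Among 9 striatal markers, P60 replicate 3 was the lowest library of its stage for 2, Bcl11b (21.6, 33.1 and 15.8 CPM) and Foxp1 (20.7, 36.3 and 19.9 CPM), and replicate 1 was the lowest for 6. Penk, the enkephalin gene of Drd2-type striatal neurons, stood at 102, 162 and 163 CPM in the 3 P60 libraries, Adora2a at 5.3, 17.4 and 11.2 CPM, and the sum of 9 striatal markers at 347, 559 and 486 CPM. Dopamine neuron genes were highest in P60 replicate 1, with the dopamine transporter gene Slc6a3 at 95.1 CPM against 15.6 and 31.3 and Th at 42 CPM against 11.7 and 12.4. The part of either cell type in the Drd2 values was not tested.

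Drd5, the second Gs-coupled dopamine receptor, appeared late. It had 3, 1 and 0 reads at E9.5, 5, 5 and 1 at E14.5, then 138, 144 and 122 at P60. The embryonic stages overlapped (adjusted p = 0.22) and the rise to P60 was 5.24 ± 0.47 (adjusted p = 2.5e-06). Drd4, a receptor of cortex and retina, was near the detection limit of these libraries throughout, with 8, 6 and 2 reads, then 10, 20 and 11, then 8, 14 and 15, and none of its 3 comparisons was called (adjusted p = 0.062, 0.89 and 0.065). Without E9.5 replicate 1 the comparisons of Drd4 with E9.5 had an adjusted p of 0.04 each. Drd3, a receptor of the ventral striatum, had no read at E9.5, 2, 3 and 3 at E14.5, then 3, 5 and 0 at P60. It was at least 2.35-fold higher at E14.5 and at least 2.49-fold higher at P60 than the E9.5 floor, and it was not tested.

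The adrenergic family held the largest fall of the 37 genes between E9.5 and E14.5. Adra2b, a Gi/o-coupled alpha-2 receptor known from vascular smooth muscle and thalamus, had 243, 145 and 118 reads at E9.5, 11, 19 and 10 at E14.5, then 96, 117 and 83 at P60. Every E9.5 library exceeded every later one, and the E14.5 libraries were the lowest. Adra2b fell 14.3-fold by E14.5 (log2 fold change -3.84 ± 0.37, adjusted p = 5.1e-06) and rose 7.8-fold from there to P60 (2.96 ± 0.37, adjusted p = 2.6e-05). At E9.5 it was the most abundant of all 37 genes per kb of transcript, at 1.4 CPM per kb (0.947 to 2.04 over the libraries). That range overlapped those of Chrm4 (0.798 to 1.23) and Htr1b (0.918 to 1.17).

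The E9.5 library with the most Adra2b reads was replicate 1, the one with heart muscle markers. In it the cardiac actin gene Actc1 stood at 130 CPM against 2.95 and 2.9, and Slc6a2, the noradrenaline transporter gene, at 11.9 CPM against 0.0663 and 0.0638. Leaving that library out gave a log2 fold change of -3.45 ± 0.31 for Adra2b from E9.5 to E14.5 (adjusted p = 1.1e-05). The comparison of P60 with E9.5 was -0.88 (adjusted p = 0.02) with all libraries, -0.5 (adjusted p = 0.11) without E9.5 replicate 1 and -0.73 (adjusted p = 0.078) without P60 replicate 3. Erythroid genes were also lower in sum at the later stages, from sums of 3190 to 4310 CPM at E9.5 to 854 to 1670 at E14.5 and 26 to 110 at P60 over 7 genes, with 3 of 7 higher in mean at E14.5 than at E9.5 and 0 of 7 higher at P60 than at E14.5. The sum of 10 heart and skeletal muscle markers was 4.34 to 6.21 CPM at E14.5 and 41.9 to 53.1 CPM at P60, where Nkx2-5 was at 0. For 6 mural cell markers, the cells around vessels, the sums were 115, 43 and 42.8 CPM at E9.5, 123 to 145 at E14.5 and 208 to 245 at P60, with 4 of 6 higher in mean in the first step, 5 of 6 in the second and none at 0. Among them the smooth muscle gene Acta2 stood at 67.3, 15.9 and 14.7 CPM, then 9.13, 8.31 and 6.81 CPM, then 26.2, 31.8 and 32.8 CPM, and Tagln at 40.2, 21.2 and 19.4 CPM, then 5.54, 4.75 and 4.89 CPM, then 32.4, 23.9 and 39.9 CPM. Within E9.5 these 2 genes were, like Adra2b, highest in replicate 1, and their E14.5 libraries were the lowest. Unlike Adra2b, both were higher in every P60 library than in E9.5 replicates 2 and 3. The other 4 of the 6 mural markers had higher means at E14.5 than at E9.5. The part of muscle, vessel and blood cells in the Adra2b values was not tested.

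The other alpha-2 genes rose as Adra2b fell. Adra2a, the main noradrenaline autoreceptor, had 1.54, 0.961 and 1.56 CPM at E9.5, 13.3, 15.9 and 13.3 at E14.5, then 11.6, 15.2 and 8.39 at P60. It was 10.4-fold higher at E14.5 than at E9.5 (log2 fold change 3.38 ± 0.27, adjusted p = 1.3e-06), and its P60 libraries overlapped those at E14.5 (-0.27 ± 0.23, adjusted p = 0.31). At E14.5 it had the highest CPM of the 37 genes. Adra2c, the third Gi/o-coupled alpha-2 receptor, had 0.844 ± 0.191, 4.02 ± 0.605 and 25 ± 3.14 CPM (SD, n = 3) at the 3 stages and rose in both steps, by 2.25 ± 0.22 and 2.63 ± 0.19 (adjusted p = 5.4e-06 and 5.1e-07).

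The 3 alpha-1 genes, which couple to Gq, had unlike values over the stages. Adra1d had 10, 5 and 4 reads at E9.5, 3, 5 and 7 at E14.5, then 565, 791 and 543 at P60. Its embryonic stages overlapped (log2 fold change -0.52 ± 0.47, adjusted p = 0.36), and it was then 131-fold higher at P60 (7.03 ± 0.35, adjusted p = 3.4e-08). The antisense transcript Gm14285, which shares sequence with its exons, had 57 reads over all libraries. Adra1b rose at both steps, from 8, 8 and 5 reads through 77, 160 and 130 to 566, 838 and 578, with log2 fold changes of 3.91 ± 0.34 and 2.52 ± 0.26 (adjusted p = 2.6e-06 and 6.1e-06). Adra1a was called at the first step and not at the second, rising from 15, 15 and 12 reads to 46, 130 and 133 (2.67 ± 0.4, adjusted p = 0.00015), and had 71, 111 and 82 at P60 (-0.14 ± 0.34, adjusted p = 0.72). As with Chrm2, the low E14.5 library was replicate 1, and its part in these values was not tested.

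Beta receptors couple to Gs. Adrb1, the main beta receptor of forebrain neurons, had 12, 2 and 11 reads at E9.5, 74, 83 and 69 at E14.5, then 413, 590 and 396 at P60, with log2 fold changes of 2.98 ± 0.39 and 2.71 ± 0.31 (adjusted p = 6e-05 and 1.5e-05). Adrb3, the beta receptor of fat tissue, had 10, 12 and 13 reads at E9.5, 4, 9 and 2 at E14.5, then 56, 78 and 48 at P60. The log2 fold change of -1.38 ± 0.47 between the embryonic stages (adjusted p = 0.024) rested on few reads, and on leaving out E9.5 replicate 2 or 3 or E14.5 replicate 1 or 3 its adjusted p was 0.058 to 0.087. The rise to P60 was 3.65 ± 0.41 (adjusted p = 1.4e-05). Without E14.5 replicate 2 the 2 steps were -2.06 and 4.33.

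Histamine receptors were led by Hrh3, the Gi/o-coupled autoreceptor of histamine neurons that also sits on other axons and on striatal neurons. It had 23, 26 and 23 reads at E9.5, 299, 242 and 242 at E14.5, then 1208, 2036 and 1002 at P60. The stages did not overlap, and the log2 fold changes were 3.26 ± 0.29 (adjusted p = 2.9e-06) and 2.51 ± 0.25 (adjusted p = 4.5e-06). Hrh1, the Gq-coupled receptor through which antihistamines sedate, had 8, 7 and 4 reads at E9.5, 16, 29 and 25 at E14.5, then 441, 600 and 505 at P60. Its rise was smaller in the first step, 1.67 ± 0.33 (adjusted p = 0.00098), than in the second, 4.54 ± 0.25 (adjusted p = 7.8e-08), and the difference between the steps was not tested. Hrh2, coupled to Gs, had 2 reads in all at E9.5, 6, 17 and 14 at E14.5 (a ratio of normalised counts of 16.3, 95% interval 4.2 to 140) and 40, 88 and 32 at P60. Hrh4, a receptor of blood and immune cells, had 1 read in the whole series.

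By mean share over the libraries of a stage, the leading receptor changed with stage in all families but histamine. In the dopamine family the leader at E9.5 and at E14.5 was not the same in every library. Levels of different genes are compared per kb of transcript, as the share of the family's summed CPM per kb (mean ± SD, n = 3). Chrm4 made up 91 ± 2.08% of the muscarinic total at E9.5, Chrm3 51.6 ± 2.02% at E14.5 and Chrm1 55.8 ± 0.435% at P60. Among adrenergic receptors the lead passed from Adra2b (48.9 ± 8.73%) to Adra2a (42.2 ± 2.05%) and then to Adra1d (28.4 ± 1.58%). These are changes of share, and a receptor can lose share while its own level rises, as Chrm3 did from E14.5 to P60 (28.7 ± 0.655% at P60). The level of Chrm4 also rose in that step, while its shares overlapped (12.2 ± 1.47% and 11.4 ± 0.202%).

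The serotonin family was led by Htr1b at E9.5 (35.5 ± 3.69%) and by Htr2c at P60 (40.8 ± 1.39%), whereas at E14.5 Htr3a (21.3 ± 5.03%), Htr2c (19 ± 1.04%) and Htr7 (18.6 ± 1.28%) lay within the spread of Htr3a. Without E14.5 replicate 1, Htr2c led at 19.6%. In the dopamine family Drd2 had the highest mean share at E9.5 (42.3 ± 6.69%), when the 5 genes together stood at 0.669 to 0.696 CPM. Its libraries there overlapped those of Drd4 (26.7 ± 15.3%) and Drd1 (25.1 ± 16.1%). In E9.5 replicate 1 Drd4 led, at 40.1% against 38.6% for Drd2. Drd1 and Drd2 overlapped at E14.5 (46.2 ± 3.21% and 45 ± 2.61%, with Drd2 leading at 46.3% without replicate 1). Drd1 led at P60 (57.5 ± 11%). Hrh3 made up 86.2 ± 4.15%, 93 ± 2.82% and 80.9 ± 3.8% of the histamine total.

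Grouped by signalling class, the share of the Gi/o-coupled receptors was lower and that of the Gq-coupled ones higher at each later stage. The 15 Gi/o genes made up 66.8, 63.7 and 61.7% of the summed CPM per kb of all 37 genes in the E9.5 libraries, 50.3, 47.7 and 46.5% at E14.5, then 33.2, 33.4 and 30.2% at P60. The 10 Gq genes made up 8.38, 9.73 and 8.15%, then 21.6, 31 and 29.3%, then 49.7, 51.1 and 50.7%. No stage overlapped another in either class. The absolute level of both classes was higher at each later stage, at 4.93, 15.1 and 57.6 CPM per kb for Gi/o and 0.671, 8.64 and 89.8 for Gq on average. Within the Gq class at P60, Chrm1, Htr2c, Chrm3 and Adra1d were the 4 highest, at 30.2, 18.4, 15.4 and 10.2 CPM per kb. The Gs class held 11.3 ± 2.38, 16.9 ± 1.92 and 12.8 ± 1.18%, and the channel subunits 11.8 ± 0.291, 7.16 ± 2.09 and 2.32 ± 0.264%.

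**Figure D3:**
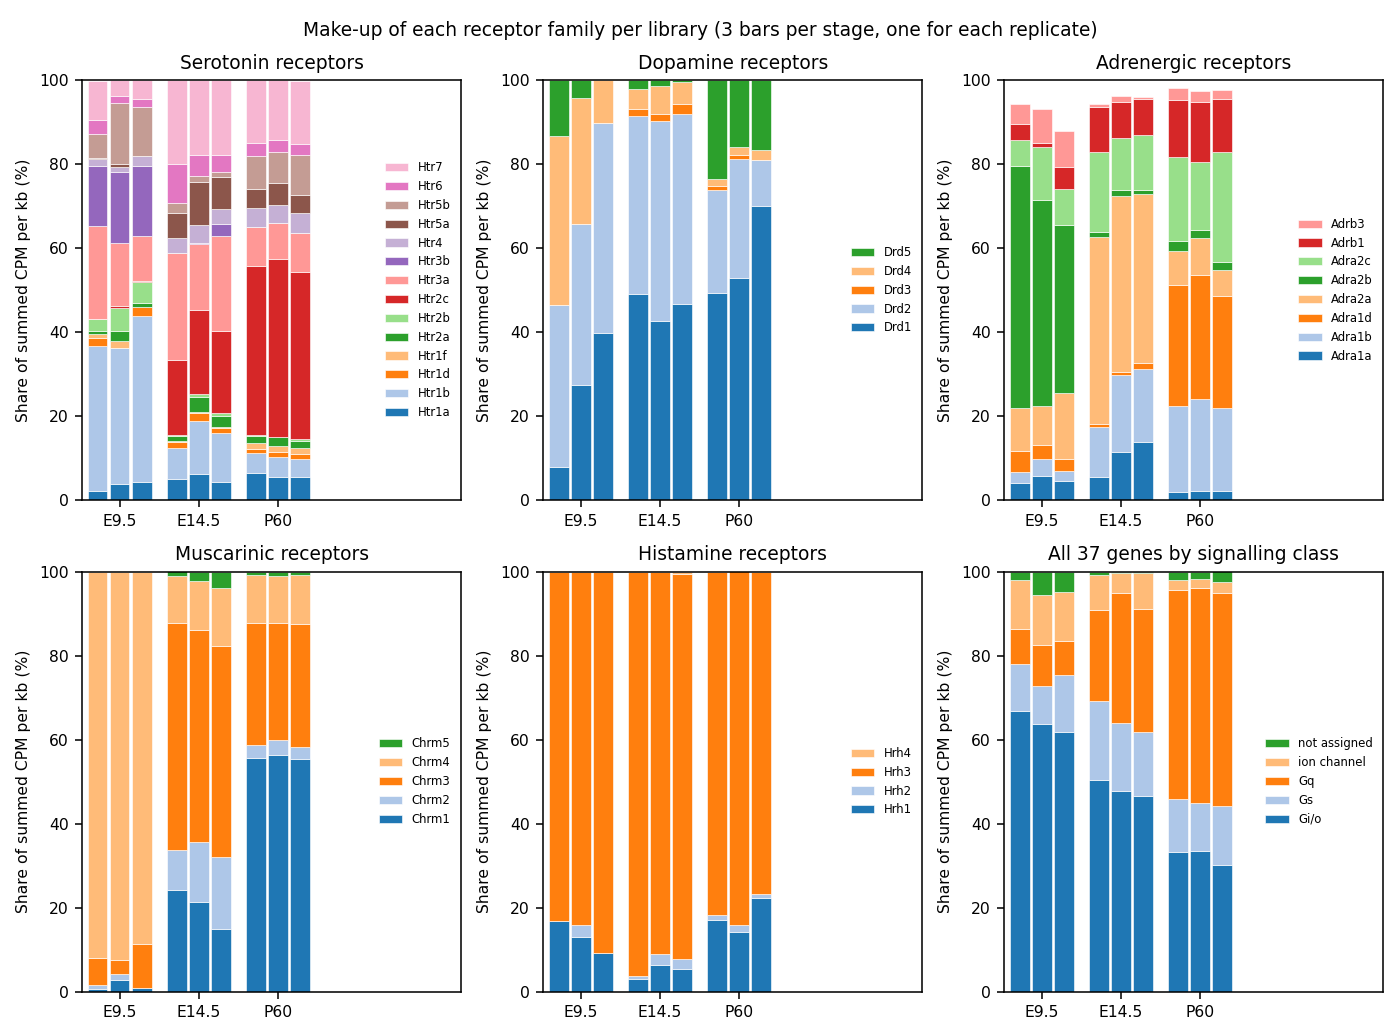
Share of each receptor gene in the summed CPM per kb of its family, and of each signalling class in the sum of all 37 genes, with one stacked bar per library and 3 bars per stage (1 adrenergic gene is not drawn, so those bars end below 100%). Chrm4 takes most of the muscarinic bar at E9.5 (91.0% on average), and the Gq class grows from 8.75% at E9.5 to 50.5% at P60.

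The balance within 12 pairs of related subtypes was measured in each library as the log2 ratio of (CPM + 0.5). The 12 ratios had an adjusted p of 0.0043 to 0.021 for a difference across the 3 stages in an exact permutation test over the 9 libraries (smallest possible p 0.0036, Benjamini-Hochberg over the 12 pairs). With permutation inside the replicate number 10 of the 12 stayed under 0.05, and Drd2 to Drd3 and Hrh1 to Hrh3 had an adjusted p of 0.056. Because the single genes of a pair are the members already described, these tests are not independent of them. The log2 ratio of Htr2a to Htr2c was 0.39 ± 0.19 at E9.5, -2.09 ± 0.44 at E14.5 and -3.79 ± 0.1 at P60 (SD, n = 3), lower at each later stage. Its E9.5 value is set largely by the 0.5 CPM added, since Htr2a and Htr2c had 0.208 and 0.0327 CPM there. Htr1a to Htr1b went the other way within the Htr1 genes, from -1.91 ± 0.21 through -0.36 ± 0.33 to 0.83 ± 0.1. From E9.5 to P60 Htr2a to Htr2c changed by -4.19 with 0.5 CPM added, -5.06 with 0.1 CPM and -3.89 with 1 CPM, and Htr1a to Htr1b by 2.74, 3.43 and 2.27.

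Some pairs did not move in one direction. Chrm2 to Chrm4 went from -1.86 ± 0.14 to 1.65 ± 0.4 at E14.5 and back to 0.13 ± 0.16 at P60, and Htr5a to Htr5b from -0.97 ± 0.34 to 2.54 ± 0.56 and 0.59 ± 0.28. Adra2a to Adra2c rose from 0.46 ± 0.48 to 1.7 ± 0.27 and then turned to -1.09 ± 0.57. The E9.5 ratios of the first 2 pairs are set largely by the pseudocount, since Chrm2 and Htr5a had 0.0555 and 0.0443 CPM there. From E9.5 to P60 the ratio of Chrm2 to Chrm4 changed by 2 with 0.5 CPM added, by 3.57 with 0.1 CPM and by 1.38 with 1 CPM, and that of Htr5a to Htr5b by 1.56, 2.84 and 1.15. In each of these 3 pairs the E14.5 libraries lay above all libraries of the other stages. Drd1 to Drd2 was -0.11 ± 0.23, 0.45 ± 0.15 and 1.85 ± 0.87, and the wide spread at P60 came from replicate 3 at 2.86, against 1.38 and 1.32. Its E9.5 value also depends on the pseudocount, with Drd1 and Drd2 at 0.206 and 0.251 CPM there. From E9.5 to P60 it changed by 1.96 with 0.5 CPM added, 2.27 with 0.1 CPM and 1.78 with 1 CPM.

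**Figure D4:**
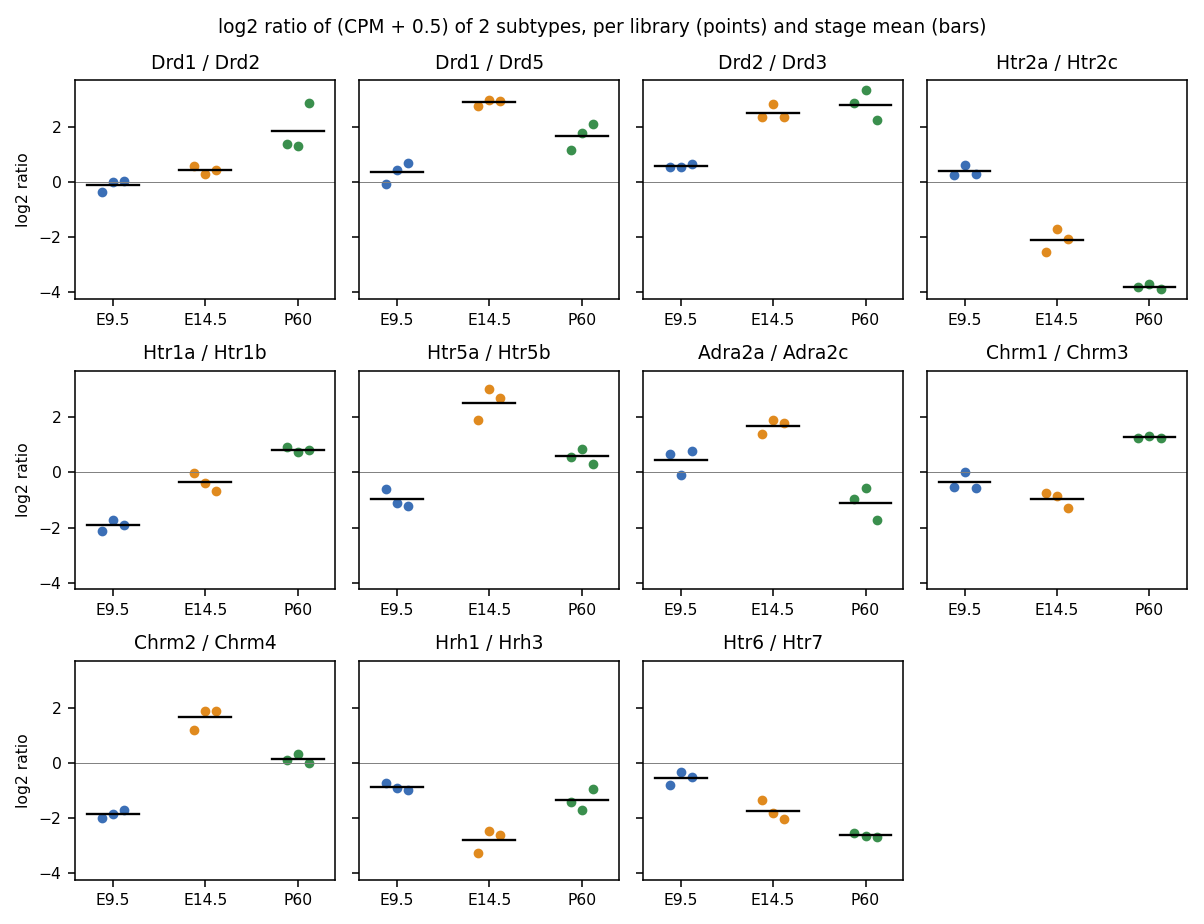
log2 ratio of (CPM + 0.5) for 11 of the 12 pairs of receptor subtypes, with one point per library, a bar at the stage mean and a grey line at equal CPM. Htr2a / Htr2c falls at each step, Htr1a / Htr1b climbs, and Chrm2 / Chrm4, Htr5a / Htr5b and Adra2a / Adra2c peak at E14.5.

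The mRNAs of proteins that carry the signal onward were measured in the same libraries. Of 10 G protein alpha subunit genes, 6 were higher and 3 lower at E14.5 than at E9.5, and 3 higher and 4 lower at P60 than at E14.5. For this and the following lists the shares of all genes tested that were called were 34% higher and 30.7% lower in the first step, and 36.7% higher and 39.4% lower in the second. Gnao1, the Go subunit of neurons, rose from 17.9 ± 1.74 to 431 ± 43.2 CPM (SD, n = 3) by E14.5, and Gnal, the Gs-type subunit of striatum and olfactory neurons, from 4.88 ± 0.366 to 70.5 ± 15.6 CPM. Gnaq, the main Gq subunit, fell from 260 ± 36.6 CPM at E14.5 to 93.6 ± 28 CPM at P60 (log2 fold change -1.47, adjusted p = 7.5e-05). Of 12 adenylyl cyclase and phospholipase C beta genes, 7 were higher and 2 lower in each step, with Adcy5, the striatal cyclase, at 5.27 ± 0.322 and 73.6 ± 11.2 CPM at E9.5 and E14.5. Rgs14, a regulator of Gi signalling in hippocampal neurons, rose from 0.569 ± 0.0554 CPM at E14.5 to 119 ± 8.32 CPM at P60. Its list of 13 receptor kinase, arrestin and RGS genes had 7 higher and 1 lower in the first step and 6 higher and 4 lower in the second.

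Genes that make, move and break down the ligands changed in both directions. Of 21, of which 20 were tested, 14 were higher and 4 lower at E14.5, and 12 higher and 2 lower at P60. Th, the rate-limiting enzyme of dopamine and noradrenaline synthesis, rose from 0.732 ± 0.175 to 10.6 ± 2.84 CPM by E14.5, and Hnmt, which inactivates histamine, from 1.68 ± 0.268 CPM at E14.5 to 44.8 ± 8.26 at P60. Maob, a monoamine-degrading enzyme, fell from 14.8 ± 1.92 to 2.37 ± 0.723 CPM and then rose to 51.9 ± 7.49. The other receptor families set beside the members were the metabotropic glutamate receptors, with 7 of 8 genes (7 tested) higher at E14.5 and 6 of 8 higher at P60, and the nicotinic receptors, with 5 of 16 (11 tested) higher at E14.5 and 4 higher and 3 lower at P60. Their median log2 fold changes were 4.94 and 1.38 for the glutamate receptors tested and 1.16 and 0.54 for the nicotinic ones. The nicotinic subunit gene Chrnb2 rose from 6.39 ± 0.536 to 125 ± 4.46 CPM and then fell to 46.7 ± 12.5.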

How the data were processed

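RNA from 9 central nervous system samples (3 stages, 3 libraries each) was made into full-length cDNA by poly(A) priming and amplified by PCR, per the labels' protocols. The authors deposited raw read counts per gene in one table. The submitters' processing notes name Trimmomatic 0.36, STAR 2.5.2b and the mm10 build. The counting program, annotation and strand setting are not given in the sources used here. PCR copies carry no molecular identifiers, so count intervals and floors cover counting error only.

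Of 45706 identifiers, 45143 matched GENCODE M21 (GRCm38), the source of symbols, coordinates and lengths. The model was edgeR's robust quasi-likelihood fit (version 4.0.16, R 4.3.3) to all 9 libraries with stage as its single term, after filterByExpr on stage and TMM normalisation. Adjustment was by Benjamini-Hochberg over 17971 genes with a threshold of 0.05. SEs were derived from the fold change and its F statistic. Levels per kb use the mean length of a gene's coding transcripts. The scripts were tested on simulated data.

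The members, gene lists and signalling classes were chosen with earlier results of these data known. Of the genes used, 1 member and 1 marker gene enter the counts, sums and fits but are not reported here. The other 36 members are named, as are up to 2 rises and 2 falls per context list and step with at least 5 CPM in the higher stage, of which the text gives a selection, and marker genes where a member moves with that cell type. The comparison of genes of at least 4 kb with shorter ones was added after seeing the data.

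Same-numbered E9.5 and E14.5 libraries deviated together from their stage means (r = 0.37, 0.141 and 0.209 across genes). So did E9.5 replicate 3 with E14.5 replicate 2 (0.202) and E9.5 replicate 2 with E14.5 replicate 3 (0.185). Replicate 1 of either stage deviated against the other numbers (r = -0.29 to -0.224). These values do not settle whether the numbers are pairs. The reported fold changes use stage alone, and the replicate number as a block is given as an alternative. Alternatives tried were DESeq2 1.42.0, other scalings, filters and pseudocounts, a threshold of 0.01, a replicate block, a fit of only the 2 stages compared, other transcript lengths and leaving out each library.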

Additional observations from a re-analysis of the deposited data

How the results depend on the processing

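The counts of members called higher and called in all stayed within 1.5 times of the reported value under every alternative. Those called lower are few and moved. For E14.5 against E9.5 they were 4, and 1 at a threshold of 0.01, 2 with only the 2 stages compared, and 1 to 4 on leaving out 1 library. For P60 against E14.5 the single call (Htr3b) became 0 at a threshold of 0.01, with a filter of 1 CPM in 3 libraries and with only the 2 stages compared, and 0 to 1 on leaving out 1 library. For P60 against E9.5 the 2 calls became 1 at a threshold of 0.01 and 1 with a filter of 1 CPM in 3 libraries, which removed Htr3b from the test, and 1 to 2 on leaving out 1 library. Apart from the genes a filter removed, the cause was not tested. In these fits a stage left with 2 libraries shares its spread with the other stages.

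The log2 ratio of Hrh1 to Hrh3 at P60 minus that at E9.5 was -0.51 with a pseudocount of 0.5 CPM and 0.15 with 0.1 CPM, so its direction over the whole interval depends on the pseudocount. The leading gene differed in 2 of 15 family and stage combinations without E14.5 replicate 1, as reported, and in none with the other lengths or libraries left out.

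With the replicate block the members called were 26 rather than 27 for E14.5 against E9.5 (Htr5b lost), and 30 and 33, as without it, for the other comparisons. In neither of those did every same-numbered pair deviate together (r = 0.171, 0.337 and -0.224 for E14.5 with P60, 0.096, 0.114 and -0.1 for E9.5 with P60). The fit of E9.5 and E14.5 alone with the block, added after seeing the data, called 24. Scaling shifts the median of all genes. For P60 against E14.5 it was -0.06, 0.1 with upper quartile scaling and -0.2 with library totals, and for P60 against E9.5 0.05 and 0.2 with upper quartile scaling. Depth limits Chrm5, Drd3, Drd4, Htr2b, Hrh4 and the E9.5 values of Htr2c, Hrh2, Chrm1, Chrm2 and Htr5a, which rest on a few reads.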
